A study of Mus musculus with 16 samples.

Results

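Open chromatin was described at 7 genes of cholesterol synthesis and its sterol-sensing control in mouse liver, Hmgcs1, Idi1, Sqle, Lss, Srebf2, Insig1 and Insig2, which were taken by name as a set, with earlier results of these data known and no measured value in the rule. DNase-seq marks open chromatin as DNase hypersensitive sites (DHS), stretches of DNA that the enzyme DNase I cuts readily. A DHS was counted for a gene when it overlapped the gene body or the 20 kb on either side of it, and DHS of different lists that shared at least 1 bp were joined into a region. The windows of 6 of the 7 genes held 25 regions, of 51482 regions in the whole series and 41697 in the windows of all 22380 protein-coding genes. Hmgcs1 could not be measured, for reasons given with its sequence. No gene of the set encodes a receptor or transporter that takes up cholesterol, so the values concern synthesis and its control.

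Cells make cholesterol from acetyl-CoA through mevalonate, isoprenoid diphosphates, squalene and lanosterol, and liver is a main site of this synthesis. When sterols are scarce, the transcription factor SREBP-2 is carried by the escort protein SCAP from the endoplasmic reticulum to the Golgi, cut free of the membrane, and sent to the nucleus, where it activates the genes of the pathway through sterol regulatory elements. When sterols are plentiful, the INSIG proteins hold the SCAP-SREBP complex in the endoplasmic reticulum.

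The nuclei came from livers of male and female mice of C57BL/6J (B6), the strain of the reference genome, and of the wild-derived inbred strain CAST/EiJ (CAST). All mice were 8 weeks old, and 32 units of DNase I were applied. There were 4 groups (male B6, female B6, male CAST and female CAST), each of 4 libraries that the authors pooled before calling DHS, so that each group is 1 list. No spread between animals could be computed, no test was possible, and every difference given here is between 4 pooled lists.

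The lists differed in size and in background. They held from 24888 DHS (female CAST) to 39562 DHS (male CAST). Their genome-wide background, recovered from the deposited values, ran from 7.94 reads in CAST females to 15.4 reads in B6 males. It was 13.9 in B6 females and 14.3 in CAST males. At these similar backgrounds B6 females had 26271 DHS and CAST males 39562, so size did not follow background alone. Fold enrichment (the pileup of reads at the summit over the local background) was 1.32 times as high in B6 males as in B6 females at the median region found in both, and 1.19 times as high in CAST males as in CAST females. It was 0.947 times as high in B6 males as in CAST males and 0.842 times as high in B6 females as in CAST females. Ratios called centred below are relative to these medians. As a check of the tissue, the promoters of 5 of 6 hepatocyte marker genes were DHS in all 4 lists (the sixth, Apoa1, only in the male lists), and those of 0 of 4 Kupffer cell markers in any list. Of 4 bile duct markers, Sox9 had a promoter DHS in all lists and Krt19, Krt7 and Epcam in none. Of 3 stellate cell markers, Reln had one in 3 lists and Lrat and Dcn in none. Of 4 endothelial markers, Kdr had one in both B6 lists and Lyve1 and Clec4g in B6 males, at fold enrichments from 2.17 to 2.55, and Stab2 in none.

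The sequences that the results turn on are given first. They are from mm9, which is the B6 sequence, read 5′ to 3′ along the gene for promoters (the 250 bases before a transcription start site, TSS) and along the + strand for 300 bases around a summit. The Insig2 promoter runs along the - strand. CAST bases at these positions were not analysed here. Capitals mark 4 motifs searched on both strands, TCACNCCAC (a sterol regulatory element, SRE), CCAAT (the site of NF-Y), GGGCGG (a GC box, the site of SP1) and CACGTG (an E-box). None of their matches in the members' sequences overlapped each other. The 5 start sites lie under a DHS in all 4 lists, and the printed bases lie wholly within the peak of each list except at Idi1, where 218 of the 250 bases lie in the peak of B6 males, 245 in B6 females, 229 in CAST males and 100 in CAST females. The start site of Sqle was not among those searched, and 300 bases around the summit of its promoter DHS held CCAAT and GC box letters.
Srebf2 promoter, chr15:81977446-81977695, + strand: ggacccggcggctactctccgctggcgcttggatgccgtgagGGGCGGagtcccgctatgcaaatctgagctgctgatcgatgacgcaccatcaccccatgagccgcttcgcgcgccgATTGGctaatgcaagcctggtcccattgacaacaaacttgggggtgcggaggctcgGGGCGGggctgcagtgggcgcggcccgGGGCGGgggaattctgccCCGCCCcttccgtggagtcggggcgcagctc
Insig1 promoter, chr5:28397702-28397951, + strand: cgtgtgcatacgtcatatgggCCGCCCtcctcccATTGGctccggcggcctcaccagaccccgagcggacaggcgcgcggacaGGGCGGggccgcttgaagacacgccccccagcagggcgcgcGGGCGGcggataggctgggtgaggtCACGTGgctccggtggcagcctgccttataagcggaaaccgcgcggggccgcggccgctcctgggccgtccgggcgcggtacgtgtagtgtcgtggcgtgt
Insig2 promoter, chr1:123224602-123224851, - strand: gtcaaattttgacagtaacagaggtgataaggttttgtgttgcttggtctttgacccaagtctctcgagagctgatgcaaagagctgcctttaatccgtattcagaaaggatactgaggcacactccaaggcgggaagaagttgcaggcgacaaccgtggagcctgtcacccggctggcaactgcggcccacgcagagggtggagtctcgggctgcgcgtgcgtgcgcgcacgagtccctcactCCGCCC
Idi1 promoter, chr13:8884602-8884851, + strand: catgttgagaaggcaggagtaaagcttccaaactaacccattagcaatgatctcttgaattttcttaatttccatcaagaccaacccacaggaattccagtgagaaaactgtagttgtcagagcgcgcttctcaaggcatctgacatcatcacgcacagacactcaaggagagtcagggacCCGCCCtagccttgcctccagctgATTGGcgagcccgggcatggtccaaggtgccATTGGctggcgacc
Lss promoter, chr10:75994102-75994351, + strand: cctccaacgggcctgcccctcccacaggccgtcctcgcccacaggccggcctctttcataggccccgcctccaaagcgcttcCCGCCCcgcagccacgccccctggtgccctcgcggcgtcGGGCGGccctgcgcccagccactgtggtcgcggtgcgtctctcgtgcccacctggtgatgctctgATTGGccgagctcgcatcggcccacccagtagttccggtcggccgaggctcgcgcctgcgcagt

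In windows from 250 bases before to 50 bases after these 5 start sites, the letters of the GC box occurred in all 5 (5 matches at Srebf2, 3 at Insig1, 2 at Lss and 1 each at Insig2 and Idi1), compared with 44.2% of 46028 windows at annotated protein-coding starts. CCAAT occurred in 4 of the 5, all but Insig2, compared with 35.7%. Idi1 held 2 CCAAT matches within 45 bases before its start. The E-box letters occurred at Insig1 only, compared with 7.67%, and the SRE letters at none of the 5, compared with 1.15%. These are matches of letters, and a window without them says nothing of the factor. All 5 starts lie under a DHS in every list, whereas the 46028 windows were taken whether open or not. The sets are unlike, and the shares are given side by side only.

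The sixth sequence belongs to Hmgcs1, which encodes cytosolic HMG-CoA synthase, the enzyme before the rate-limiting step of the pathway. Of the 6 promoter sequences given here it alone held the SRE letters, in a window that also held 4 CCAAT and 3 GC box matches. It is taken from the RefSeq promoter table, of assembly GRCm38.p6, and is given without coordinates because its build is not that of the lists.
Hmgcs1 promoter: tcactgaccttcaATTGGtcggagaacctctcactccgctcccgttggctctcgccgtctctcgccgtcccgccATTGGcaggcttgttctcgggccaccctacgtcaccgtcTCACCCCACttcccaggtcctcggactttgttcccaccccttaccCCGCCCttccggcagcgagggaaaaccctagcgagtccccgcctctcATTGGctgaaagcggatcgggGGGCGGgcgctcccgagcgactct

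The annotation of mm9 used here held 0 gene models named Hmgcs1. Each of 6 pieces of 50 bases of the RefSeq promoter matched mm9 exactly on an unplaced contig, on 2 different contigs, and none matched an assembled chromosome. The 4 lists held 0 peaks on unplaced contigs. The lists therefore give no measurement of the chromatin at Hmgcs1, and its missing DHS is not a value.

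The other sequences are 300 bases around summits of 6 regions outside the promoters, each centred on the summit in B6 males, except Srebf2 +37.4 kb and Srebf2 -3.0 kb, which are centred on that in CAST males. For Srebf2 +59.5 kb, whose summits differed between the strains, both are given, since the stretch around the summit in B6 males shares 210 bases with the peak of CAST males and 0 with that of CAST females. They comprise the strongest such region of Srebf2, Insig1, Insig2 and Lss, the Srebf2 region that differed most between the strains, and a Srebf2 region found only in CAST. Strongest here is by the mean within-list percentile of fold enrichment, and single lists can differ. Each is named by the gene and the distance of its summit from the annotated gene start.
Insig2 -16.6 kb, chr1:123245603-123245902: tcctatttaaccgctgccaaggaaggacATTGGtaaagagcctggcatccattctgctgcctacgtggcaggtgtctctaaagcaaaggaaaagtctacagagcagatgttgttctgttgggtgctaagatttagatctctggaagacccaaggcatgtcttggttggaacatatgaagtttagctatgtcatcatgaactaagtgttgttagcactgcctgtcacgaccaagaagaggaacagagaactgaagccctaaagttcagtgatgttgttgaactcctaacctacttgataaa
Insig1 -15.8 kb, chr5:28382001-28382300: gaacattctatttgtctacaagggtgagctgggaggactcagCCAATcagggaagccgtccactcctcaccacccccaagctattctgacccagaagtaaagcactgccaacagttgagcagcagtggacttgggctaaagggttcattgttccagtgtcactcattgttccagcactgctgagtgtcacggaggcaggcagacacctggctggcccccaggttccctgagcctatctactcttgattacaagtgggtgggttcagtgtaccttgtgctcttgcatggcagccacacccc
Srebf2 +37.4 kb, chr15:82014931-82015230: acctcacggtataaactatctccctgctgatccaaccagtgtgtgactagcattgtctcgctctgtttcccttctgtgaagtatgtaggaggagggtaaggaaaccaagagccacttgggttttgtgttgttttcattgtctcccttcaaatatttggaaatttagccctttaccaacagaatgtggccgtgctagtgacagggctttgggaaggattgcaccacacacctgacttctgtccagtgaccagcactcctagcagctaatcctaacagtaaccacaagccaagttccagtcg
Srebf2 +59.5 kb, around the B6 male summit, chr15:82037093-82037392: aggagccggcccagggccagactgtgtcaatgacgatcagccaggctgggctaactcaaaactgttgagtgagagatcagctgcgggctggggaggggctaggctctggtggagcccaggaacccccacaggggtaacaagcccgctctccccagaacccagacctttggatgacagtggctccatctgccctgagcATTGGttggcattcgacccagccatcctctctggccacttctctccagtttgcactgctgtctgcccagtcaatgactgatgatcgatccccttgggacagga
Srebf2 +59.5 kb, around the CAST male summit, chr15:82036776-82037075: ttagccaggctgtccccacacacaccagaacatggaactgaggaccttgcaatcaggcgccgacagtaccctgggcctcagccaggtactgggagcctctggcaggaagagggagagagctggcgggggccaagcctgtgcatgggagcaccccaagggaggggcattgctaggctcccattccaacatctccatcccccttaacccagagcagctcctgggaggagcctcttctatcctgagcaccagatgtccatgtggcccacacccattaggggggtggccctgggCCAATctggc
Lss +38.7 kb, chr10:76032871-76033170: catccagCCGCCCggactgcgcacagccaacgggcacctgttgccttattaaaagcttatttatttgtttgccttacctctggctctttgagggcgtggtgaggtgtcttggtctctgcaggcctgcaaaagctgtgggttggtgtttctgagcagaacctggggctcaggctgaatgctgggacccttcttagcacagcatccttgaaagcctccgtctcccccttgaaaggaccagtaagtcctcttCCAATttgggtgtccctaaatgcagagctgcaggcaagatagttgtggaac
Srebf2 -3.0 kb, chr15:81974520-81974819: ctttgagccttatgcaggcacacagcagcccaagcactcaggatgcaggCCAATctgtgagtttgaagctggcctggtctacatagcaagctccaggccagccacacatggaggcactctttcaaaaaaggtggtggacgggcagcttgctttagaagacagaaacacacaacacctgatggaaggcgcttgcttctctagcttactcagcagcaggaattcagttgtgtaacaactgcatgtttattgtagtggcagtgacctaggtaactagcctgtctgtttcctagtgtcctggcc

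Over the summits of all 25 regions, CCAAT occurred in 14 (56%), GC boxes in 9 (36%), E-boxes in 2 (8%) and the SRE letters in 0. Over 300 bases at the summits of all regions in protein-coding windows the shares were 34.6%, 23.3%, 7.45% and 1.15%. Fewer of the member regions were far from start sites, and GC boxes were commoner near them. Within 2.5 kb of a start site, 8 of 16 member regions held a GC box, compared with 47.4% of all such regions, and farther away 1 of 9, compared with 7.07%. For CCAAT these were 10 of 16, compared with 33.2%, and 4 of 9, compared with 35.6%. The 25 regions lie in 6 windows and were not a sample of those regions, so the shares are given side by side only.

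Of the 25 regions, 16 (64%) were found in all 4 lists, compared with 38.1% of regions in the windows of all protein-coding genes, and 3 (12%) in a single list, compared with 33.5%. When peaks were joined only where they shared at least 50% of both, 13 of 31 regions (41.9%) were in all 4 lists, compared with 30.3% in all protein-coding windows joined in that way. With lists of equal size it was 16 of 23 by −log10 q and 15 of 23 by fold enrichment, compared with 51.1% and 49.2%. More of the member regions lay near start sites than of all regions, and these shares were not split by that distance. The number per gene ran from 1 at Sqle to 8 at Insig2. Srebf2 had 7 regions, Lss 4, Insig1 3 and Idi1 2, and the median protein-coding gene had 2. By list, the 6 windows held 20 regions in B6 males, 17 in B6 females, 23 in CAST males and 20 in CAST females. Of the 25 regions, 9 (36%) lay more than 2.5 kb from every annotated start site, compared with 59.9% of the regions of all windows. They were confined to Srebf2, Insig1 and Insig2. The member share was 56.1% of 41 regions with a 50 kb window and 52% with a promoter limit of 1 kb. No share of all windows was computed for these settings.

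**Figure D1:**
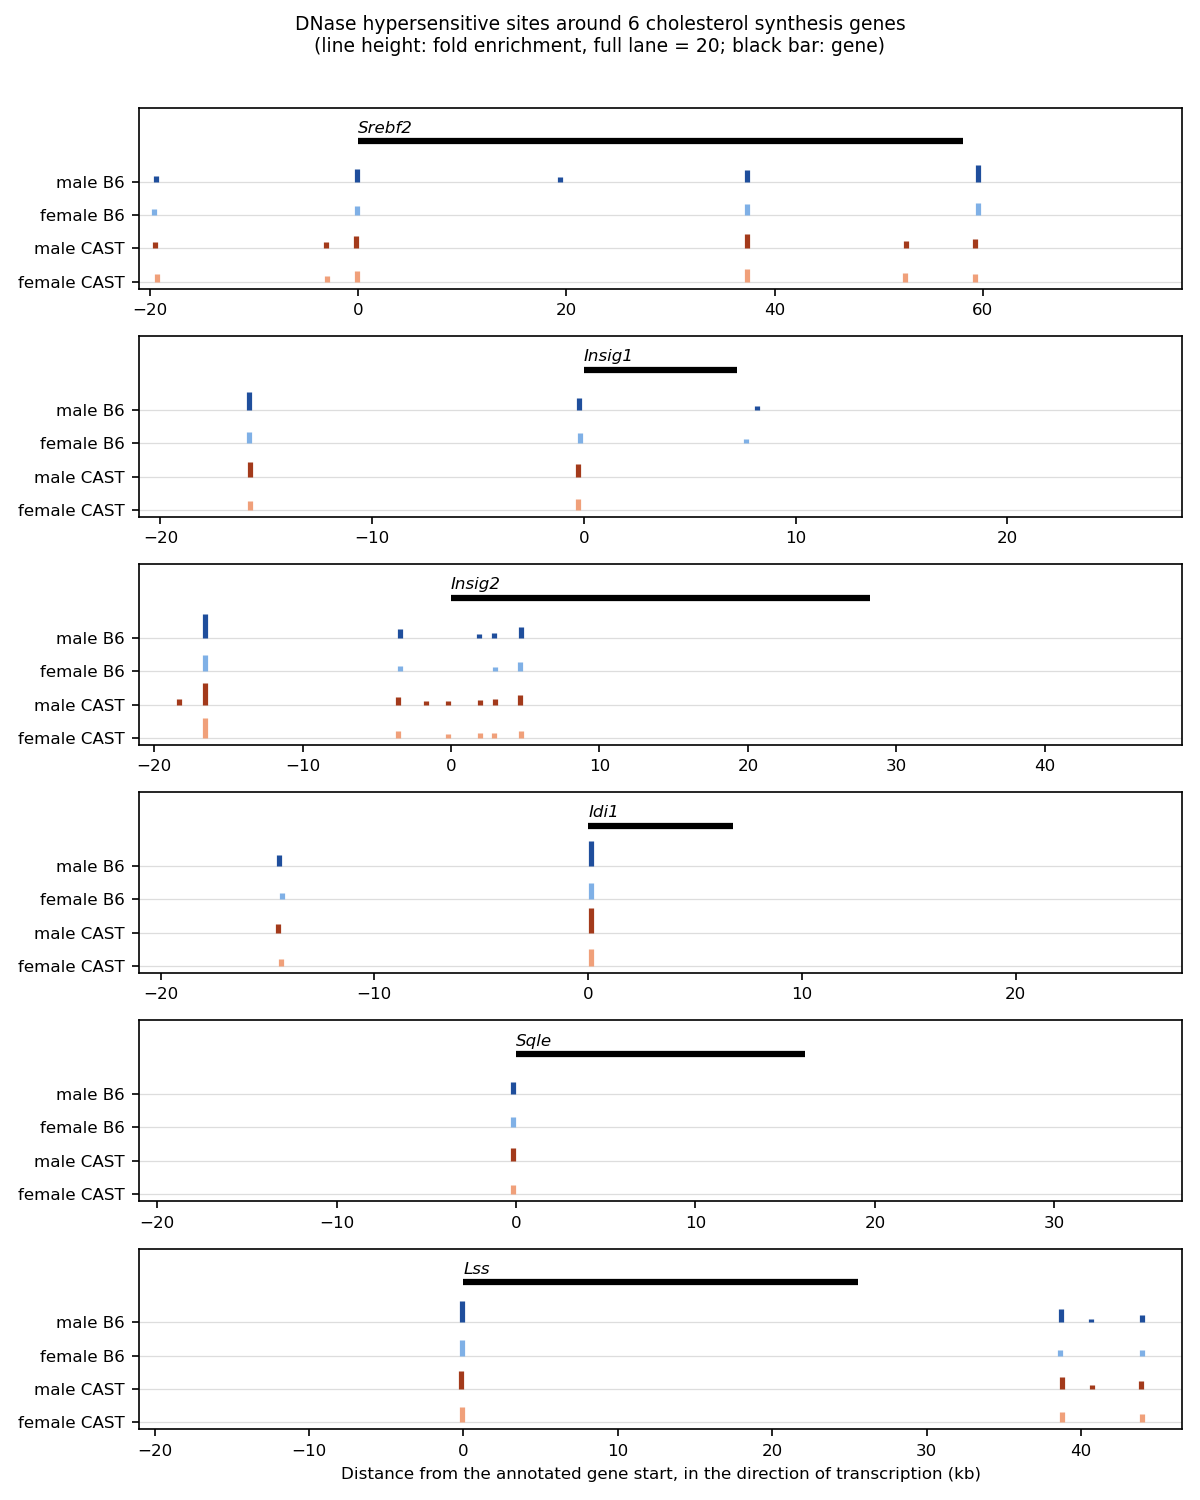
Positions of DHS around the 6 genes, in kb from the annotated gene start in the direction of transcription, with 1 lane for each pooled list. Line height is the fold enrichment of the strongest peak and the black bar is the gene; Sqle has a single site, at its promoter, while Srebf2 and Insig2 have 7 and 8.

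All 6 measured genes had a region found in all 4 lists over a start site, whereas 40.2% of 22372 protein-coding genes did. The latter were all annotated genes, whether or not used in liver, and genes with more start sites had more places to overlap. The sets are therefore unlike. Where these promoter DHS ranked within each list is given as the percentile of fold enrichment. Over the 8985 genes with a promoter DHS in all lists, the median percentile was 82.2 in B6 males, 75.4 in B6 females, 80.03 in CAST males and 69.9 in CAST females.

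Of the 3 measured member enzymes, Idi1 had the strongest promoter DHS. Idi1 encodes isopentenyl-diphosphate isomerase, which interconverts the isoprenoid units from which squalene is built. Its promoter region (chr13:8884607-8885472), over the single annotated start, had fold enrichments of 15.1 in B6 males, 9.64 in B6 females, 14.8 in CAST males and 10.3 in CAST females. These are percentiles 99.6, 98.4, 99.3 and 96.7 of their lists. The male lists were the higher in both strains, by 1.19-fold in B6 and 1.20-fold in CAST after centring, and the strains differed by 1.08-fold in males and 1.11-fold in females. The 4 summits lay within 35 bp of each other. The other region in the Idi1 window (chr13:8869892-8871185) was the promoter of the neighbouring gene Wdr37, with fold enrichments from 3.92 to 6.48.

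Lss encodes lanosterol synthase, which closes the ring system of the sterols. Its promoter DHS (chr10:75993764-75994671) had fold enrichments of 12.5 in B6 males, 9.08 in B6 females, 10.998 in CAST males and 8.93 in CAST females, at percentiles from 93.6 to 98.5. After centring, the sexes differed by 1.04-fold in B6 and 1.04-fold in CAST, and B6 was the higher by 1.20-fold in males and 1.21-fold in females.

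Sqle encodes squalene epoxidase, which adds the oxygen to squalene. The region over its promoter (chr15:59146027-59147012) was the only DHS of its window, with fold enrichments of 6.99 in B6 males, 6.35 in B6 females, 7.56 in CAST males and 5.79 in CAST females. The sexes were ordered differently in the strains after centring, with a male to female ratio of 0.834 in B6 and 1.10 in CAST. The female CAST value is the lowest and rests on 67 reads at the summit (95% Poisson interval 51.9 to 85.1). Poisson intervals given here cover counting error only, since reads without molecular identifiers are not independent molecules.

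Among the regulators, Srebf2 encodes SREBP-2. Its promoter DHS (chr15:81977061-81977954) had fold enrichments of 7.65 in B6 males, 5.30 in B6 females, 7.51 in CAST males and 6.77 in CAST females. Female B6 was the lowest, and all 4 centred ratios lay between 0.930 and 1.09.

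Insig1 encodes an endoplasmic reticulum protein that holds SCAP, and is itself a target of SREBP in liver. Its promoter DHS (chr5:28397158-28398949) also covered the start of the lincRNA Gm16719 on the other strand. Fold enrichments were 7.17 in B6 males, 5.74 in B6 females, 7.26 in CAST males and 6.54 in CAST females, and the 4 centred ratios ran from 0.933 to 1.04. It was broad, at 1702 bp in B6 males, 1073 bp in B6 females, 1656 bp in CAST males and 1627 bp in CAST females.

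Insig2, the second such protein, has 10 annotated protein-coding start sites, 7 of them between 123224255 and 123224601 on chromosome 1 and 2 farther upstream, at 123229127 and 123229166. The DHS found in all 4 lists (chr1:123224060-123224931) lay over the inner starts, with fold enrichments of 6.67 in B6 males, 5.65 in B6 females, 5.71 in CAST males and 4.49 in CAST females. B6 was the higher in both sexes, by 1.23-fold in males and 1.49-fold in females after centring. By summit pileup over the genome-wide background these centred ratios were 1.21 and 1.26. Beside the outer starts lay a region found in the CAST lists only, Insig2 -0.2 kb (chr1:123229137-123229566). Its female CAST peak covered the start at 123229166, and its male CAST peak covered neither start. It was weak, with fold enrichments of 2.05 in CAST males and 2.16 in CAST females (percentiles 3.41 and 0.623), although its summit pileups of 149 and 67 reads were 10.5 and 8.44 times the genome-wide background. The local background beside it was 72.2 reads in CAST males and 30.4 in CAST females. The part of neighbouring open chromatin in its presence or absence was not tested.

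**Figure D2:**
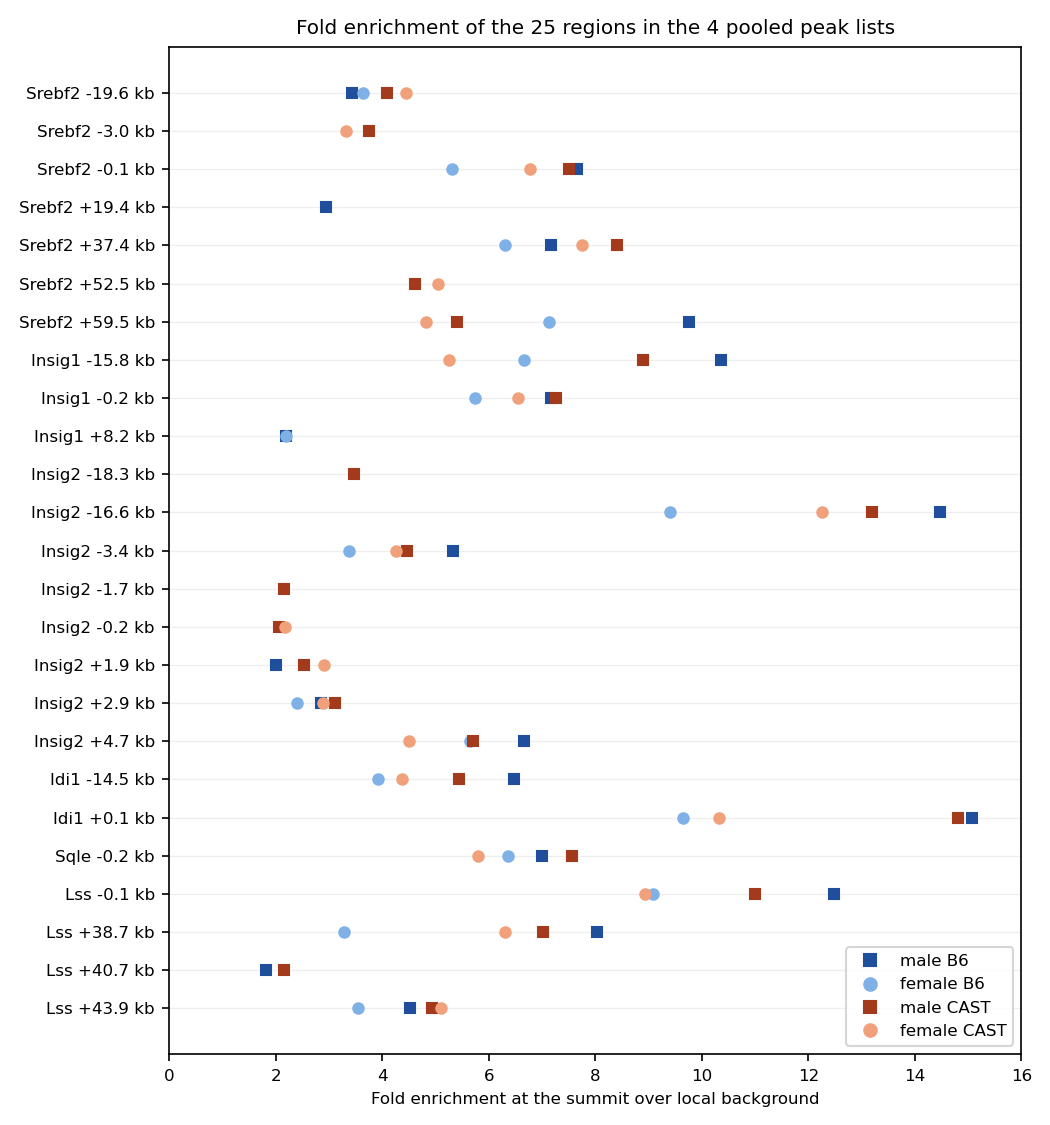
Fold enrichment at the summit (x axis) of the 25 regions, named by gene and summit distance from the gene start, with squares for male and circles for female lists. The promoters of Idi1 and Lss and the Insig2 -16.6 kb region reach the highest values, and regions with fewer than 4 symbols were missing from the other lists.

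Promoters of other genes of the pathway were counted in the same way. Of 16 further enzymes, 15 had a promoter DHS in all 4 lists, 0 in some lists and 1, Idi2, in none. Idi2 is a paralog of Idi1. The median percentile of the 15 was 91.5 in B6 males, 85.8 in B6 females, 89.0 in CAST males and 78.8 in CAST females, compared with 87.8, 88.0, 85.9 and 83.1 for the 6 members. All 4 further regulators, Srebf1, Scap, Mbtps1 and Mbtps2, had a promoter DHS in all lists. Mbtps1, which encodes the protease that makes the first cut of SREBP, had percentiles from 99.0 to 99.5, and Mbtps2, the second protease, from 20.03 to 62.8. None of the 25 promoters of members, enzymes and regulators differed by 2-fold or more after centring in any of the 4 comparisons.

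**Figure D3:**
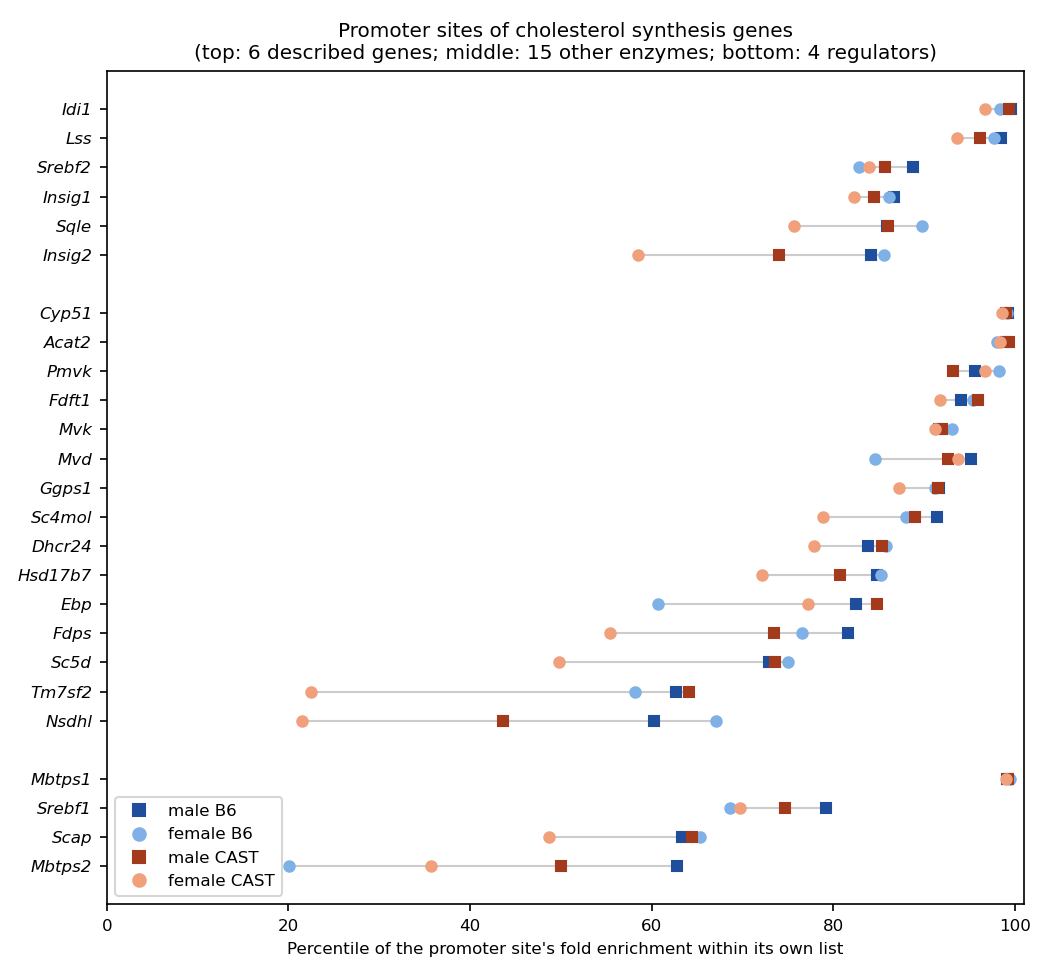
Percentile of each promoter DHS within its own list (x axis) for the 6 members, 15 other enzymes and 4 regulators; lines join the lowest and the highest of the 4 lists. Female CAST is the lowest list for 5 of the 6 members, all but Srebf2.

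The genes with the most similar promoter DHS, by the mean absolute difference in percentile over the 4 lists among 8985 genes, were Mff, Atp5g1 and Orc6 for Idi1 (differences from 0.235 to 0.312), Pgrmc2, Camsap1 and Aldh6a1 for Lss (0.355 to 0.387), and Gmnn, Mapkap1 and 2310028O11Rik for Sqle (0.791 to 1.06). For the regulators they were Iyd, Elf1 and Wbp4 for Srebf2 (0.696 to 0.735), Naa30, Gls2 and Khk for Insig1 (0.574 to 0.649), and Oraov1, Ncapg2 and Isca1 for Insig2 (1.65 to 1.98).

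Outside the promoters, the strongest region of the set lay upstream of Insig2. The Insig2 -16.6 kb region (chr1:123245354-123246226) is intergenic and had fold enrichments of 14.5 in B6 males, 9.40 in B6 females, 13.2 in CAST males and 12.3 in CAST females, at percentiles from 98.2 to 99.5. Its summit pileups were 545 reads (500 to 593), 211 (184 to 242), 548 (503 to 596) and 219 (191 to 250), in the same order. The 4 centred ratios of fold enrichment ran from 0.905 to 1.17, and the summits lay within 32 bp of each other. Its fold enrichment was higher than that of the inner Insig2 promoter in all 4 lists.

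Of the other Insig2 regions, 2 were found in all lists, at -3.4 kb (chr1:123232283-123233218, fold enrichments from 3.37 to 5.33) and in an intron at +2.9 kb (chr1:123225923-123226489, from 2.39 to 3.11). An intronic region at +1.9 kb (chr1:123227056-123227425) was missing only from female B6, with fold enrichments of 1.99 in B6 males, 2.54 in CAST males and 2.90 in CAST females. Male CAST alone had regions at -1.7 kb (chr1:123230544-123230952, 2.15) and -18.3 kb (chr1:123247165-123247765, 3.46). Insig2 thus had regions in the order of 8 in CAST males, 6 in CAST females, 5 in B6 males and 4 in B6 females.

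At Srebf2, an intronic region at +37.4 kb (chr15:82013862-82015636) was the strongest distal DHS by mean percentile. Its fold enrichments were 7.17 in B6 males, 6.30 in B6 females, 8.40 in CAST males and 7.76 in CAST females, which were close to those of the promoter. It was also the widest region of the gene, at 1337 to 1775 bp of peak in each list. The region at -19.6 kb (chr15:81957718-81958812) was the promoter of Ccdc134, with fold enrichments from 3.44 to 4.44. An intronic region at +19.4 kb (chr15:81996843-81997257) was found in male B6 alone, at 2.94.

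The Srebf2 +59.5 kb region (chr15:82036555-82037717), intergenic and just past the end of the gene, was the member region that differed most between the strains. Fold enrichment was 9.76 in B6 males, 7.12 in B6 females, 5.39 in CAST males and 4.82 in CAST females. Both B6 lists exceeded both CAST lists, by 1.91-fold in males and 1.76-fold in females after centring, whereas the centred sex ratios were 1.04 in B6 and 0.940 in CAST. Summit pileups were 298 reads (265 to 334) in B6 males, 153 (130 to 179) in B6 females, 88 (70.6 to 108) in CAST males and 43 (31.1 to 57.9) in CAST females. Set against the genome-wide background, these are 19.4, 10.98, 6.18 and 5.42, and the centred B6 to CAST ratio was 3.27 in males and 2.61 in females. The local background, by which fold enrichment divides, was itself 29.6 reads in B6 males and 15.5 in CAST males.

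The position of the Srebf2 +59.5 kb site also differed. The summits were 34 bp apart between the B6 lists and 5 bp apart between the CAST lists, but 317 bp apart between B6 and CAST males and 278 bp between B6 and CAST females. The male distance was the largest of the 18 member regions found in both male lists, whose median was 46.5 bp, and 4.35% of regions in all windows had a distance at least as large. The peak was 973 bp wide in B6 males, 1115 bp in B6 females, 551 bp in CAST males and 312 bp in CAST females. The CAST peaks covered the proximal part of the B6 peaks.

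Srebf2 also had 2 regions found in both CAST lists and in neither B6 list. The region at -3.0 kb (chr15:81974490-81974795, intergenic) had fold enrichments of 3.76 in CAST males and 3.32 in CAST females, with 120 reads (99.5 to 144) and 49 reads (36.2 to 64.8) at the summit. The region at +52.5 kb (chr15:82029989-82030483), which overlaps a coding exon of Srebf2, had fold enrichments of 4.61 and 5.05, with 76 reads (59.9 to 95.1) and 45 reads (32.8 to 60.2). In CAST males and females, their percentiles were 50.4 and 31.2 at -3.0 kb and 62.6 and 67.1 at +52.5 kb.

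With Insig2 -0.2 kb, 3 of the 25 regions (12%) were in both CAST lists and neither B6 list, compared with 3.27% of regions in all windows. The opposite pattern was found once, at Insig1 +8.2 kb (chr5:28405532-28406806), compared with 2.97%. That region was weak, at 2.19 in B6 males and 2.19 in B6 females, with 44 and 36 reads at summits 533 bp apart. Both classes were added after the values were seen, and the 3 CAST regions lie at Srebf2 and Insig2 only. Counted in each sex by itself, regions in CAST and not B6 made up 20% in males and 19% in females. The shares in all windows were 19.6% and 16.7%. CAST reads were aligned by the authors to a CAST version of the genome and moved to mm9 coordinates, and the part of sequence or alignment in these differences was not tested.

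At Insig1, the strongest region by mean percentile lay outside the promoter, at -15.8 kb (chr5:28381336-28382582), over an alternative start of the lincRNA Gm16719. Fold enrichment was 10.4 in B6 males, 6.65 in B6 females, 8.89 in CAST males and 5.26 in CAST females. The male list was the higher in each strain, by 1.18-fold in B6 and 1.42-fold in CAST after centring, and the B6 list the higher in each sex, by 1.23-fold in males and 1.503-fold in females. Summit pileups were 453 reads (412 to 497), 159 (135 to 186), 210 (183 to 240) and 46 (33.7 to 61.4), in the same order. Against the genome-wide background the order of the lists was the same and the differences were larger, with centred B6 to CAST ratios of 2.08 in males and 2.54 in females and male to female ratios of 1.55 in B6 and 1.83 in CAST. The peak narrowed from 1208 bp and 1241 bp in male and female B6 to 954 bp in CAST males and 540 bp in CAST females.

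Past the end of Lss, a region at +38.7 kb (chr10:76032632-76033559) covered the annotated start of Gm15343, which lies between Lss and Ftcd. Its fold enrichment was 8.04 in B6 males, 3.27 in B6 females, 7.02 in CAST males and 6.30 in CAST females. Female B6 stood apart from the other 3 lists. The centred male to female ratio was 1.86 in B6 and 0.936 in CAST, and the centred B6 to CAST ratio was 1.21 in males and 0.616 in females. Summit pileups were 252 reads (222 to 285), 58 (44.0 to 75.0), 256 (226 to 289) and 96 (77.8 to 117). The female B6 peak was 249 bp wide, compared with 861 bp in B6 males, 928 bp in CAST males and 833 bp in CAST females.

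**Figure D4:**
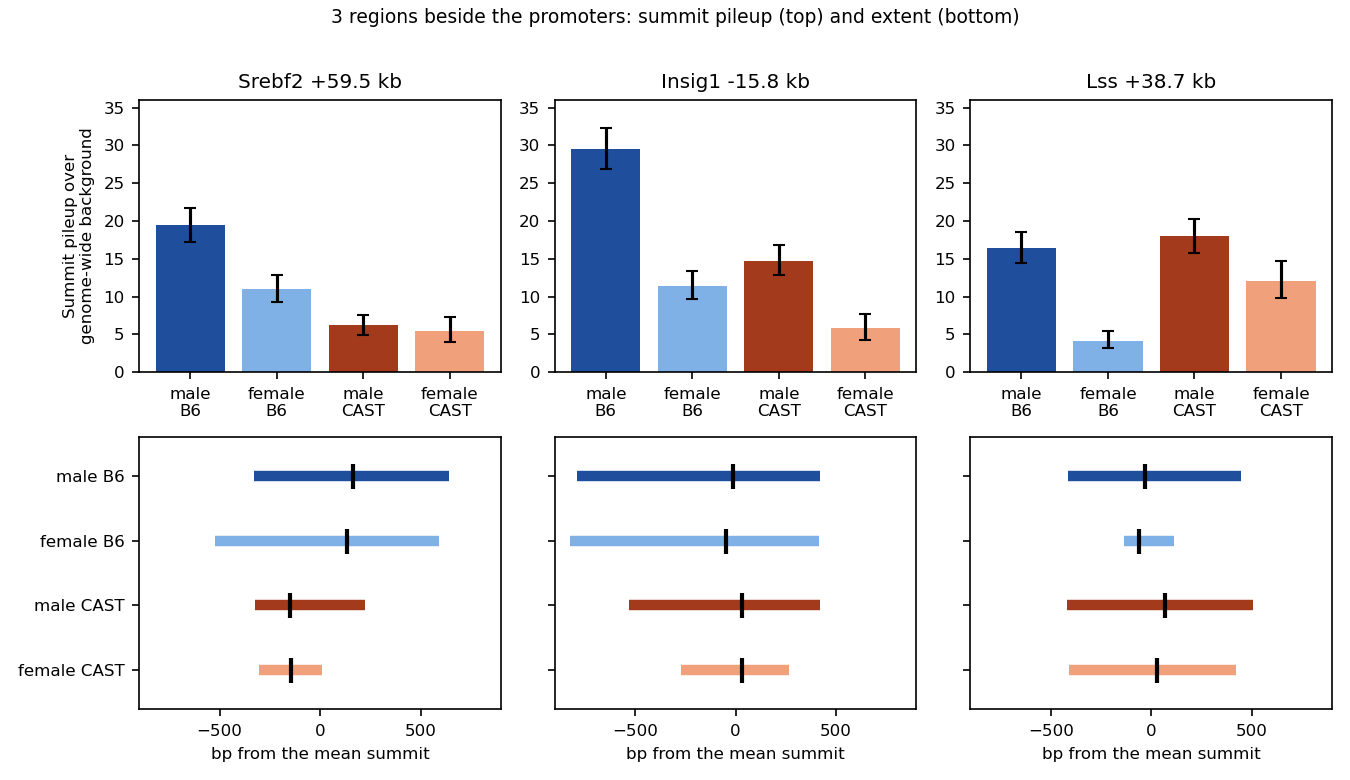
Summit pileup over the genome-wide background (top, with 95% Poisson intervals for counting error) and extent and summit of the peak in bp from the mean summit (bottom) for 3 regions in the 4 lists. At Srebf2 +59.5 kb the CAST peaks are lower, narrower and shifted; at Lss +38.7 kb the female B6 peak alone is low and narrow.

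The other regions of the Lss window were a weak one at +40.7 kb (chr10:76034890-76035247), found in both male lists and neither female list with fold enrichments of 1.81 in B6 and 2.16 in CAST, and the promoter of Ftcd at +43.9 kb (chr10:76038021-76040025), found in all lists at 3.54 to 5.11. The weak region lies between those 2 stronger ones, and its local background was 47.1 reads in B6 males and 56.0 in CAST males, compared with genome-wide backgrounds of 15.4 and 14.3.

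The question of whether a site was called in 1 sex only was asked within each strain. In B6, 3 of 20 regions (15%) were in the male and not the female list (Srebf2 +19.4 kb, Insig2 +1.9 kb and Lss +40.7 kb), compared with 35.0% of regions in all protein-coding windows. In CAST, 3 of 23 (13%) were in the male and not the female list (Insig2 -1.7 kb, Insig2 -18.3 kb and Lss +40.7 kb), compared with 38.8%. The reverse was found for 0 of 20 in B6 and 0 of 23 in CAST, compared with 4.87% and 3.44%. Lss +40.7 kb was the only region of 25 in both male lists and neither female list, compared with 9.30%, and 0 of 25 were in both female lists and neither male list, compared with 0.0576%. With lists of equal size by −log10 q, the counts in the male and not the female list were 0 of 17 in B6 and 2 of 22 in CAST, compared with 12.9% and 13.9% in all protein-coding windows. By fold enrichment they were 1 of 18 and 1 of 21, compared with 13.6% and 14.6%, and with joining at 50% of both peaks 6 of 24 and 4 of 26, compared with 38.0% and 41.5%. With only peaks at or above the pooled median −log10 q, the counts in the male and not the female list were 2 of 15 and 7 of 20. The shares in all windows were then 44.6% and 49.4%. With the 50 kb window the counts were 7 of 31 and 9 of 36, compared with 35.6% and 39.4%. None of these shares was split by distance from start sites. The female lists were the smaller in both strains. The genome-wide background was 15.4 reads in males and 13.9 in females in B6, and 14.3 and 7.94 in CAST. Fold enrichment at shared regions was also lower in females in both strains. The parts of depth and of enrichment in these counts were not tested.

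The same count was made between strains, separately for males and females. In males, 2 of 25 regions (8%) were in B6 and not CAST, compared with 18.2%, and 5 of 25 (20%) in CAST and not B6, compared with 19.6%. With lists of equal size by −log10 q, 0 of 22 were in B6 and not CAST and 6 of 22 the reverse, compared with 14.7% and 14.99% in all protein-coding windows. By fold enrichment these were 1 of 20 and 4 of 20, compared with 15.15% and 15.5%. In females, 1 of 21 (4.76%) was in B6 and not CAST, compared with 21.3%, and 4 of 21 (19%) in CAST and not B6, compared with 16.7%. The 4 regions were Srebf2 -3.0 kb, Srebf2 +52.5 kb, Insig2 +1.9 kb and Insig2 -0.2 kb, and their share was near that of all windows. A missing site means that no peak passed the authors' threshold, and no value was given below it.

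Among regions found in both lists of a comparison, none of the members reached a centred 2-fold difference in fold enrichment. This held for 17 regions between B6 males and females, 20 between CAST males and females, 18 between B6 and CAST males and 16 between B6 and CAST females. Of regions in the windows of all protein-coding genes, the shares that did were 0.150%, 0.259%, 1.90% and 0.930%, in the same order, so that a 2-fold difference by this measure was rare throughout. The median centred log2 ratio of the member regions was 0.05 and -0.10 for male over female in B6 and CAST, and 0.11 and 0.02 for B6 over CAST in males and females.

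Measured by summit pileup over the genome-wide background instead, 1 of 17 regions passed 2-fold between the sexes in B6 (Lss +38.7 kb, at 2.36), 0 of 20 in CAST, 2 of 18 between the strains in males (Srebf2 +59.5 kb and Insig1 -15.8 kb) and 3 of 16 in females (the same 2 and Lss +38.7 kb, at 0.444). The shares in all protein-coding windows were 1.01%, 1.09%, 5.40% and 2.90%. None of the 6 promoters passed 2-fold by either measure. The centred log2 ratios of fold enrichment at the promoters ran from -0.26 to 0.24 for male over female in B6 and from -0.10 to 0.27 in CAST, and from -0.04 to 0.30 for B6 over CAST in males and from -0.11 to 0.58 in females. Over 7982 promoter regions found in all lists, the central 90% lay between -0.34 and 0.40, -0.37 and 0.42, -0.37 and 0.42, and -0.39 and 0.52. The Insig2 promoter in females, at 0.58, lay outside its range, and the other 23 values lay inside. A central 90% leaves some values outside by construction. By summit pileup over the genome-wide background the same Insig2 ratio was 0.34.

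**Figure D5:**
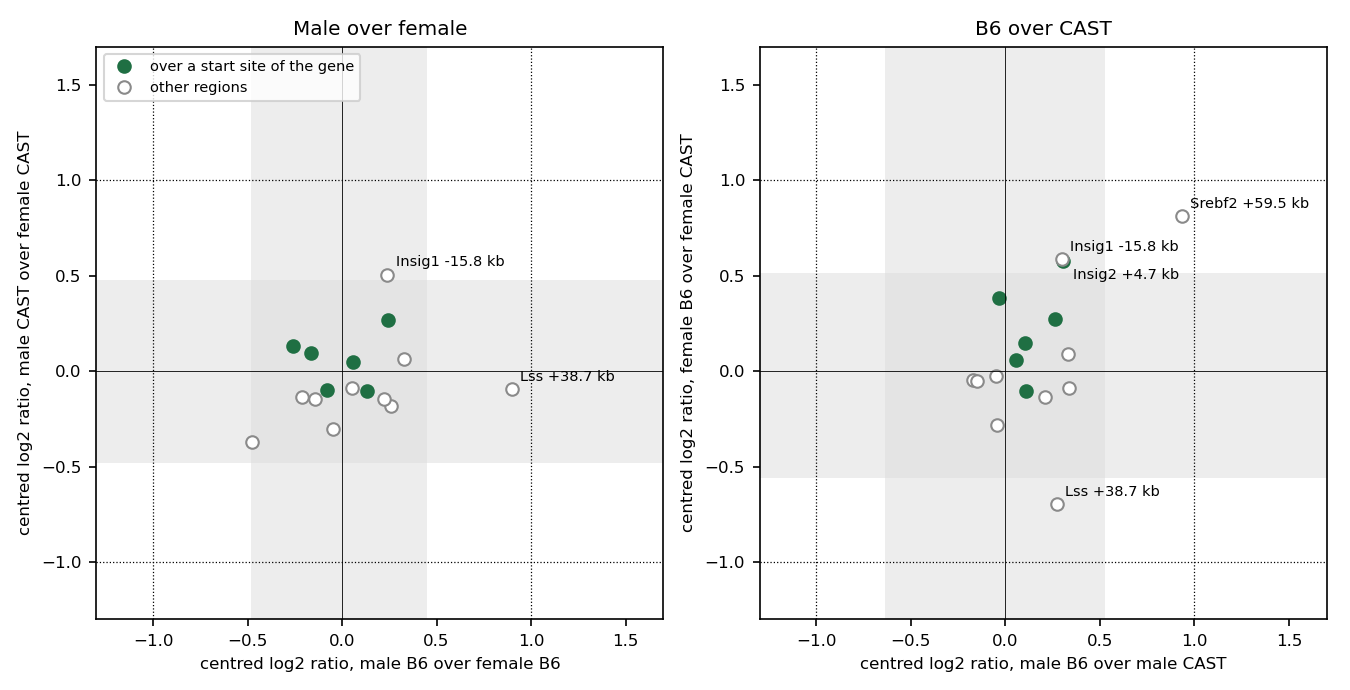
Centred log2 ratios of fold enrichment for member regions found in all 4 lists, male over female in B6 against CAST (left) and B6 over CAST in males against females (right). Filled points are promoters, grey bands span the 5th to 95th percentile of all regions in protein-coding windows, dotted lines mark 2-fold, and Srebf2 +59.5 kb is the only point to the upper right beyond both bands for strain.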

How the data were processed

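The DNase-seq lists rest on libraries from 16 livers, 4 for each sex of B6 and CAST mice. The authors had left out 1 more library of each group on grounds of sample quality. The authors kept reads that Bowtie2 placed at a unique position, in mm9 for B6 and in a CAST version of it for CAST, moved CAST coordinates to mm9, pooled the 4 libraries of each group and called DHS with MACS2. The deposited fold enrichment is a ratio of summit pileup to local background, and the deposited −log10 p-value and −log10 q-value score each peak within its own list. The lists give no read totals. Summit pileups and backgrounds were recovered from the fold enrichment and the p-value, allowing for MACS2's pseudocount of 1, and lay within 0.02 of a whole number for 99.9% to 100.0% of peaks. Poisson intervals are exact and cover 95%.

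Groups came from the library titles. Peaks sharing at least 1 bp were joined with Python (3.11.15), pandas (2.3.3), NumPy (2.4.6) and SciPy (1.17.1). The strongest peak of a list represented a region. Log2 ratios were centred on the median of all regions in both lists. Start sites were those of coding genes, lincRNAs and processed transcripts in GENCODE vM1 (mm9), and motif shares used protein-coding starts. Joining, recovery of pileups and centring were tested on simulated data.

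The members, gene lists, motifs and limits were chosen with earlier results of these data known. Described were all members, their regions within 2.5 kb of a member's start, found in some lists only or past the fold, and the strongest distal region of each. Insig1 -15.8 kb, Lss +38.7 kb and the regions at promoters of neighbouring genes were added after their values were seen, as were summit distances and the classes that combine both sexes or both strains. The alternatives were stricter joining, a stricter threshold, lists of equal size, other windows, a gap of 500 bp, another promoter limit, and other measures of height.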

Additional observations from a re-analysis of the deposited data

How the results depend on the processing

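Each group is a single pooled list, so no replicate could be left out, and the values measure 4 lists and not the spread between animals. No paired analysis was possible because the result comes from no test and each group is 1 pooled list. Of 64 recomputed summary values, 46 stayed within 1.5 times the reported count or within the 95% interval of the reported share. Joining only peaks that share at least 50% of both lowered the share of regions in all 4 lists from 64% to 41.9% and raised the regions in male but not female B6 from 3 to 6. The stricter threshold gave 7 of 20 regions in male but not female CAST and 0 of 20 in B6 but not CAST males, beside 49.4% and 12.01% in all protein-coding windows. When each list was reduced to the same number of peaks by −log10 q, 0 regions were in male but not female B6 and 0 in B6 but not CAST males. Reduced by fold enrichment, they gave 1 for each of these and 1 in male but not female CAST. The 10 kb window lowered the number of member peaks over all lists from 84 to 54 and the regions in male but not female CAST to 1 of 15 (38.2% in all windows). The 50 kb window gave 41 regions in all, with 7 of 31 in male but not female B6, 9 of 36 in male but not female CAST and 10 of 39 in CAST but not B6 males, beside 35.6%, 39.4% and 19.95% in all windows. Summed over the 4 comparisons, the differences past the fold numbered 0 as reported, 1 without centring, 6 by summit pileup over the genome-wide background (at 3 distinct regions) and 5 at a fold limit of 1.5 (at 3 distinct regions). Over the whole series, 1.28% to 2.6% of regions passed in a comparison without centring, 1.29% to 6.12% by pileup and 5.22% to 11.2% at 1.5. The causes of these changes were not tested beyond the construction of each alternative. No value is given for sites below the authors' threshold and the read totals are unknown, so what depth limits could not be measured.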
